A study of Mus musculus with 4 samples.

Results

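The cells described here are blood progenitors of mouse bone marrow that carried transcripts of Gata1, Klf1 and Car1, and they are labelled erythroid-primed progenitors. They were chosen by their own RNA. A cell barcode was a member when it had at least 1000 genes, at most 10% mitochondrial UMIs, at least 5 UMIs of Gata1, Klf1 and Car1 together, and less than 0.2% of its UMIs from the mast cell protease genes Cma1, Mcpt4 and Tpsb2. This gave 76 members. Counting also a library with both Mll3 and Mll4 deleted, 22916 of 27080 barcodes passed the cell filter. There were 37 members in the control library, 20 in the Mll3 deleted library and 19 in the library labelled Mll4 deleted.

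Each library held donor-derived (CD45.2+) marrow cells sorted as Lin-Sca1+Kit+ (LSK), the compartment of stem and multipotent progenitor cells, 10 weeks after transplantation. The groups were a control (its library is named WT), an Mll3 deletion, an Mll4 deletion and the deletion of both genes, with 1 library each and a panel of 6 antibodies read in the same cells. Mll3 and Mll4 are the genes Kmt2c and Kmt2d, which encode histone H3 lysine 4 methyltransferases of enhancers. The number of animals, the way the genes were deleted, the exons removed and the host strain are not given in the sources used here. The double deleted library is used only as background. With 1 library per genotype no test between genotypes was possible, so intervals cover counting error only, and a difference between genotypes cannot be told apart from a difference between libraries.

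Red cells arise from multipotent progenitors that pass through a stage shared with the megakaryocyte lineage before they become committed. GATA1 and KLF1 are the transcription factors that turn on the red cell program, and Car1 encodes a carbonic anhydrase that is among the first red cell proteins to be made. In mouse LSK cells, progenitors with CD150 and CD48 but without CD135 (called MPP2) are known for their megakaryocyte and erythroid bias. Globin genes rise mainly later, outside the LSK compartment.

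The members made up 0.509% of the kept control cells (37 of 7274, exact 95% interval 0.358 to 0.700). They were 0.328% of the Mll3 deleted cells (20 of 6101, 0.20 to 0.506) and 0.396% of the library labelled Mll4 deleted (19 of 4793, 0.239 to 0.618). These intervals overlap, so a difference in share was not detectable at this depth. The rule counts raw UMIs, and depth differed: the median cell had 14454 UMIs in the control library, 15381 in the Mll3 deleted library and 21400 in the library labelled Mll4 deleted. After every cell was thinned to 8000 UMIs and the minimum set to 3, the shares were 0.532% (36 of 6762), 0.399% (23 of 5762) and 0.361% (13 of 3600). The double deleted library had 0 members of 4748 cells, which allows a share of up to 0.0632% (3 counts; the exact upper limit is 0.0777%), and no cell of it had more than 3 UMIs of the selecting genes. Its median cell had 8920 UMIs. At 8000 UMIs it still had 0 of 2731 cells, with an upper exact limit of 0.135%, below the lower limits of 0.373, 0.253 and 0.192% in the other libraries.

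As a background, cells with at least 50 UMIs of the neutrophil granule genes Elane, Prtn3 and Ctsg should lack a red cell program. Of these, 0 of 146, 0 of 153 and 2 of 1064 reached 5 UMIs of the selecting genes in the control, Mll3 deleted and Mll4 labelled libraries, at median depths of 27946, 27644 and 45680 UMIs. At least 1 UMI of the selecting genes was found in 6.70, 6.85 and 5.53% of all kept cells, so a trace of these transcripts was common. The mast cell cap held back 0, 0 and 2 cells. Members were deeper than the other cells of their library, with median UMIs of 21551 against 14428 in control, 24270 against 15371 in Mll3 deleted and 41450 against 24526 in the library labelled Mll4 deleted. The 5 deepest members held 26.4, 51.2 and 50.7% of the members' UMIs, so levels summed over members lean on few cells, above all in the mutant libraries. Pairs of libraries shared 7 to 14 barcodes of kept cells, and no pair shared a barcode that was a member in both.

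The levels of the selecting genes chose the members and are given only as a description. Summed over members and scaled to CPM (UMIs per 1000000 UMIs of those cells), Gata1 stood at 106, 106 and 102 CPM in the control, Mll3 deleted and Mll4 labelled members, in the order used from here on. Klf1 stood at 98.3, 174 and 75.2 CPM. Car1 stood at 1299, 2614 and 1632 CPM, against 0.220, 0.171 and 0.367 CPM in the other cells. Gata1 varied less from cell to cell, with 0 to 12 UMIs, while Car1 ran from 0 to 402, 378 and 617 UMIs. The 3 highest cells held 64.6, 61.1 and 87.9% of all Car1 UMIs. Just inside the minimum, at 5 or 6 UMIs, were 11, 3 and 7 members, and just outside, at 3 or 4 UMIs, were 67, 42 and 26 cells. All 21 of the former carried Gata1, and 3 of them (14.3%) carried Car1. Of the 135 latter cells, 95.6% carried Gata1 and 5.19% Car1.

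**Figure D1:**
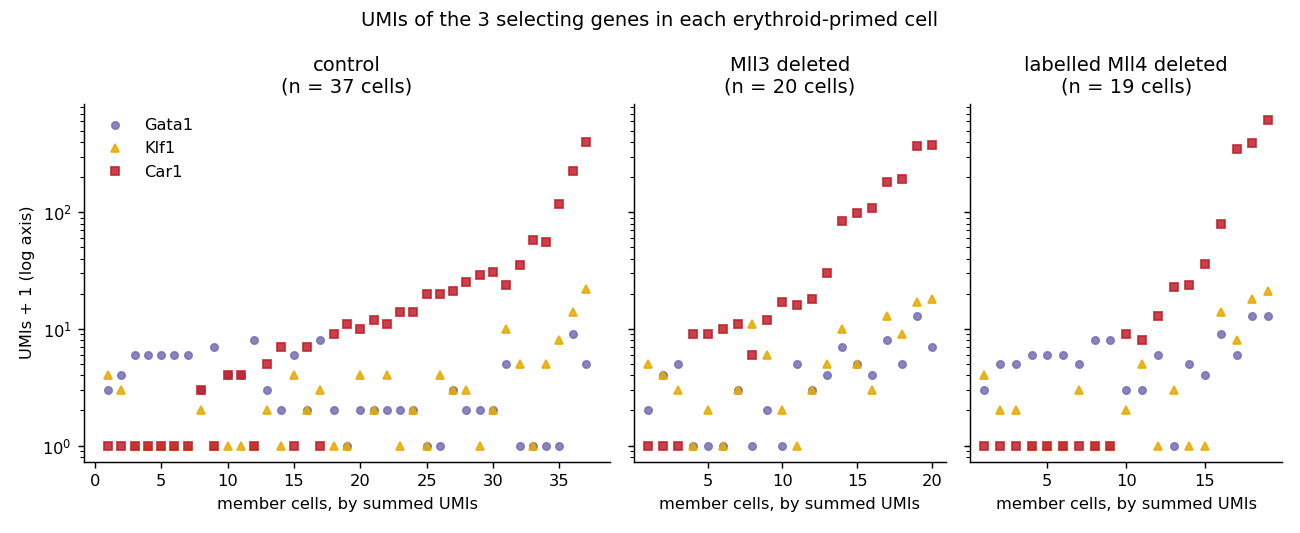
UMIs of Gata1 (circles), Klf1 (triangles) and Car1 (squares) in each member, plotted as UMIs plus 1 on a log axis, with the cells of each library ordered by the sum of the 3 genes. Most cells at the left of each panel have Gata1 but no Car1 (at 1 on this axis), and at the right Car1 reaches 402, 378 and 617 UMIs.

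Car1 divided the members. It was at 0 in 11, 3 and 9 members, between 1 and 19 UMIs in 15, 9 and 3, and at 20 or more in 11, 8 and 7. All 23 members without Car1 carried Gata1, and 11 of them carried Klf1. The red cell surface genes Ermap (the Scianna blood group protein), Rhd (a Rhesus protein) and Cldn13 (a claudin of erythroid cells) were at 0 in all 23. Among the 26 members with 20 or more Car1 UMIs, Ermap was detected in 20, Rhd in 14 and Cldn13 in 10. Tspo2, a transporter of maturing erythroid cells, was detected in 1 of 23, 15 of 27 and 25 of 26 members from the lowest to the highest Car1 class. The median UMIs of these classes were 27965, 15773 and 33413 over the libraries and 41450, 26220 and 87031 in the library labelled Mll4 deleted. The part of depth in these counts was not tested.

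Genes shared with the megakaryocyte lineage ran the other way. Itga2b, the integrin CD41, was detected in 21 of the 23 members without Car1, in 11 of 27 with 1 to 19 Car1 UMIs and in 6 of 26 with 20 or more. Pf4, platelet factor 4, was detected in 16, 1 and 1. Gata2, the stem cell GATA factor that precedes Gata1, had 253 and 318 CPM in the lower classes and 72.7 CPM in the highest. Of the 10 erythroid markers outside the rule, 7 were found in the 23 members without Car1: Car2 in 23, Mfsd2b in 16, Icam4 in 16, Tfrc (the transferrin receptor) in 12, Epor (the erythropoietin receptor) in 11, Aqp1 in 9 and Gfi1b in 8. The other 3, Ermap, Rhd and Cldn13, were at 0 there, and in the 27 members with 1 to 19 Car1 UMIs they were found in 3, 1 and 0. Among the 26 members with 20 or more, Epor was found in 19, Gfi1b in 13, Tfrc in 15 and Aqp1 in 26. In the members without Car1, which also carried Gata2 and Itga2b, the label thus rests on 7 of 10 markers, not all particular to members. Without thinning, Car2 was found in 95.3, 93.8 and 47.3% of other cells. Icam4 was found in 19.7, 25.3 and 13.7% of them, Tfrc in 16.4, 18.0 and 33.1% and Gfi1b in 13.4, 12.7 and 7.06%. Granule-gene cells had Tfrc in 39.7, 54.9 and 75.9%. Epor, Mfsd2b and Aqp1 were found in at most 6.76% of other cells. The members without Car1 are given no other name here. Because Car1 is a selecting gene, the classes are a description.

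Marker lists were then summed per cell, as UMIs per 10000 of the cell. The megakaryocyte list (16 genes, among them Pf4, Itga2b and Gp9) had a median of 10.4 in members without Car1, 7.46 at 1 to 19 Car1 UMIs and 1.19 at 20 or more. Within libraries the medians were 10.2, 11.1 and 11.7 without Car1, against 4.30, 0.320 and 0.919 in the highest class, so the order held in each. Across members Car1 per 10000 UMIs and this list had Spearman's rho of -0.75 (37 cells), -0.61 (20) and -0.88 (19), a description of cells that share a library. The list's own rho with depth was 0.01, -0.55 and -0.21. A cell without Car1 could be a member only with at least 5 UMIs of Gata1 and Klf1 together. The part of the rule in the relation between Car1 and the list was not tested. Summed over all members, the list was above the other cells in control (6 genes higher and 1 lower of 12, median log2 ratio 0.92) and Mll4 labelled members (4 and 2 of 8, 0.55) and below them in Mll3 deleted members (0 and 5 of 6, -2.27). These signs followed the minimum of the rule: at 8 UMIs, which left 23 and 10 members, the control and Mll4 labelled medians were -0.46 and -1.20, and at 3 UMIs the Mll3 deleted median was 0.52. The erythroid list (79 genes without the selecting ones) had medians of 83.9, 99.4 and 130 in these classes. Other cells of the libraries stood at 79.5, 93.3 and 57.5, and members without Car1 at 83.9, 117 and 77.2, above those medians in each library but close to it in control. The 10 erythroid markers outside the rule (Epor, Gfi1b, Tfrc, Ermap, Rhd, Mfsd2b, Cldn13, Car2, Aqp1 and Icam4) had medians of 12.2, 8.40 and 19.2 in the 3 classes, so they were not lowest in members without Car1; Car2, another carbonic anhydrase, alone stood at 945 CPM there. The list of stem cell genes (HSC list of 16 genes, among them Hlf, Mecom and Meis1) had medians of 16.6, 19 and 4.50, against 24.6, 24.3 and 15.3 in the other cells. Summed over members its median log2 ratio to other cells was -0.86, -1.81 and -0.28.

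Members without Car1 were also rich in mitotic transcripts. The G2M list (16 genes, among them Top2a, Mki67 and Ccnb1) had a median of 103 per 10000 UMIs in them, 11.8 at 1 to 19 Car1 UMIs and 49.2 at 20 or more, against 7.43, 7.68 and 9.49 in the other cells. These class medians pool the libraries. The 3 Mll4 labelled members with 1 to 19 Car1 UMIs had 68.0, 111 and 31.3, so the low middle value was not seen there. Summed over members the G2M list's median log2 ratio to other cells was 0.91, 0.20 and 1.20, and that of the S phase list was -0.29, 0.26 and -0.07. Top2a, the mitotic topoisomerase, was detected in 22 of 23, 15 of 27 and 24 of 26 members. Cells just outside the minimum had a median of 56.4. The part of cell depth in this pattern was not tested; the median UMIs of the classes are given above.

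**Figure D2:**
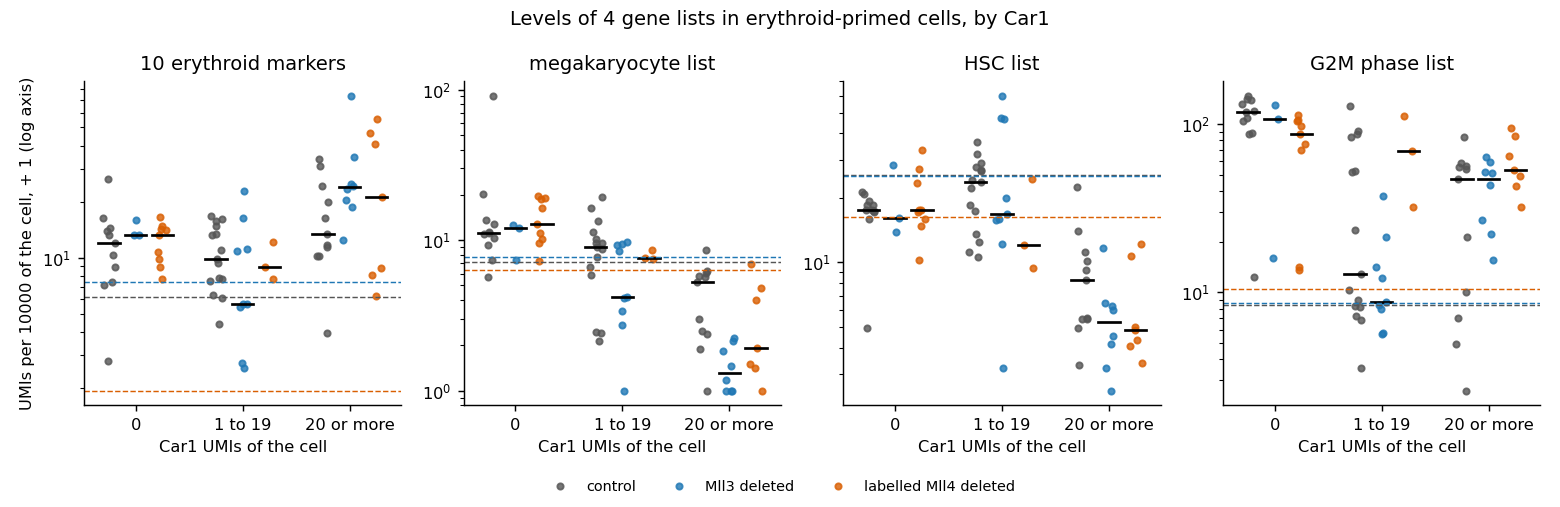
Levels of 4 gene lists in each member, as UMIs per 10000 UMIs of the cell plus 1 on a log axis, by the cell's Car1 UMIs and coloured by library. Black bars are medians and dashed lines the medians of the other cells of each library; the megakaryocyte and HSC lists are lowest at 20 or more Car1 UMIs, where the 10 erythroid markers outside the rule are highest over all members.

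Beyond the selecting genes, members were set beside the other cells of their library, a contrast the rule itself used, so these counts describe the chosen cells and support nothing more. A gene is called higher or lower here when the ratio of summed CPM is at least 2-fold, its counting interval leaves out 1 and the gene reaches 20 CPM on either side. Of the genes measured, 186 of 6409 were higher in control (2.90%), 383 of 6714 in Mll3 deleted (5.70%) and 340 of 6546 in Mll4 labelled members (5.19%). Lower were 337 (5.26%), 798 (11.9%) and 499 (7.62%). In 3 of 3 libraries, 62 of 5749 genes were higher (1.08%) and 112 were lower (1.95%). Of the 79 erythroid list genes, 48 could be measured in all 3 libraries, and 21 of these were higher and 0 lower in each. Of the red cell membrane and carbonic anhydrase genes, 3 were measured in all 3 libraries and 0 were higher in each. In control members all 3, Car2 among them, stayed within the fold.

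Among red cell receptors and surface genes, 7 of 9 measured genes were higher in all 3 libraries. Some of them, such as Epor and Ermap, reached 20 CPM in members only, so the filter allowed them no lower call. Such genes also enter the counts of the other erythroid lists, and these counts are a description. Epor, the receptor for erythropoietin, stood at 39.5, 61.3 and 39.2 CPM in members and at 2.09, 4.69 and 0.961 CPM in other cells. After thinning to 8000 UMIs it was detected in 25, 40 and 31.6% of members, in 1.44, 3.15 and 0.909% of other cells and in 0, 0 and 0.285% of the granule-gene cells. Ermap stood at 50.8, 271 and 141 CPM against 0.0507, 0.0285 and 0.166 CPM, and came from 7, 10 and 6 members. Aqp1, the water channel of red cells, stood at 105, 157 and 108 CPM against 3.54, 3.59 and 0.751 CPM. Mfsd2b, the exporter of sphingosine 1-phosphate from red cells, stood at 67.8, 52.8 and 57.2 CPM against 3.31, 2.47 and 1.02 CPM. Icam4, the Landsteiner-Wiener blood group protein, stood at 68.9, 112 and 42.3 CPM against 16.3, 20.6 and 6.51 CPM. In each of these genes the lowest library of members lay above the highest library of other cells.

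The upstream sequences of 3 of these genes are shown because each holds AGATAA, a form of the site bound by GATA factors, read here as TTATCT on the strand of the gene and set in capitals. They are the 250 bases before the RefSeq transcript start (GRCm38.p6), 5' to 3' on the gene's strand. Epor lies on the minus strand at chr9:21963577-21963826, Icam4 on the plus strand at chr9:21029182-21029431, and Ces2g, a carboxylesterase gene, on the plus strand at chr8:104961468-104961717. The motif begins 54, 43 and 38 bases before the start.
Epor: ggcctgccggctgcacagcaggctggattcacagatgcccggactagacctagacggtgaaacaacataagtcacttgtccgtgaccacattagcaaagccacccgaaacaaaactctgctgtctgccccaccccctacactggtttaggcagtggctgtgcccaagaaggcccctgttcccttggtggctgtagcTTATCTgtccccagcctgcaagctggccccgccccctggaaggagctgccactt
Icam4: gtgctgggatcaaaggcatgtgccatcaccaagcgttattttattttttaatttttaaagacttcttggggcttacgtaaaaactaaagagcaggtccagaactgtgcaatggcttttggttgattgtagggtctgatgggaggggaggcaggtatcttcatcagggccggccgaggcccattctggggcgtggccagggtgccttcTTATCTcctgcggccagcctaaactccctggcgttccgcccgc
Ces2g: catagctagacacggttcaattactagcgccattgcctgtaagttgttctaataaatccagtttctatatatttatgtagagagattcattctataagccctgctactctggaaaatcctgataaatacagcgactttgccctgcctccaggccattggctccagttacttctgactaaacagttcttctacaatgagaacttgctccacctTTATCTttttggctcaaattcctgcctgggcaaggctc
The 3 genes belong to 20 that were at least 4-fold higher in members in all 3 libraries at 20 CPM or more, 18 of which had an entry in the RefSeq promoter table. In the window from 250 bases before to 50 after the start, AGATAA on either strand was found in 3 of 18 genes (16.7%) and in 12.7% of all 27025 genes. CCACACCC, a site bound by KLF factors, was found in 1 of 18 (5.56%) and in 4.09% of all genes. Both shares are close to those of all genes, and a match is a description, not a bound site.

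Of the haem and iron genes, 5 of 11 measured were higher in all 3 libraries. Blvrb, biliverdin reductase B, stood at 332, 889 and 247 CPM in members against 55.0, 72.6 and 40.7 CPM. Cpox, which acts late in haem synthesis, stood at 67.8, 211 and 134 CPM against 22.2, 28.2 and 22.2 CPM. Alas2, the erythroid enzyme that starts haem synthesis, had 0 UMIs in all members. Its ubiquitous counterpart Alas1 stood at 16.9, 17.0 and 140 CPM against 25.9, 29.6 and 331 CPM in other cells, and was lower past the fold in the library labelled Mll4 deleted.

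Globin transcripts were scarce. They summed to 11.3, 124 and 165 CPM in members against 39.0, 39.2 and 1378 CPM in other cells. A single Mll3 deleted member with 72 and a single Mll4 labelled member with 120 globin UMIs held most of the mutant members' globin, and these cells had 83 and 390 Car1 UMIs. No other member had 10 or more. Slc4a1, the anion exchanger band 3, was seen in 1 member of the Mll3 deleted library and in 0 of the others.

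The transcription factors stood out less. Of 13 measured, only Gfi1b, a repressor needed for both red cells and megakaryocytes, was higher in all 3 libraries, at 22.6, 40.9 and 36.0 CPM against 10.4, 9.70 and 4.29 CPM. It was detected in 9, 9 and 11 members. After thinning it was detected in 0, 25 and 21.1% of members and in 7.78, 6.76 and 3.02% of other cells. In control members the higher sum thus did not go with more frequent detection at equal depth. Zfpm1, which encodes the GATA1 partner FOG1, stood at 194, 160 and 142 CPM against 88.9, 84.2 and 25.8 CPM. Lmo2, a part of the same complex, stood at 464, 475 and 438 CPM against 724, 908 and 347 CPM, not past the fold in any library. Myb, which keeps progenitors dividing, stood at 430, 482 and 411 CPM, with log2 ratios to the other cells of 0.52, 0.93 and 0.55, within the fold.

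The other early erythroid genes had 9 of 12 measured genes higher in all 3 libraries. Apoe, apolipoprotein E, was in all members but 1, at 1391, 1096 and 890 CPM against 316, 445 and 139 CPM. Mt2, a metallothionein, stood at 37.3, 98.8 and 245 CPM against 0.650, 7.67 and 7.37 CPM. Ces2g stood at 63.3, 131 and 78.3 CPM against 3.16, 7.81 and 2.18 CPM. Outside the lists, the genes with the most secure ratios were Abcb4, a phospholipid exporter (59.9, 124 and 83.6 CPM against 5.78, 4.38 and 2.84), Tnfaip2 (82.5, 119 and 232 CPM against 15.9, 19.3 and 32.9), C1qtnf12 (79.1, 247 and 181 CPM against 31.1, 45.8 and 21.8), Mns1 (186, 363 and 222 CPM against 69.2, 73.4 and 49.0) and Gnb4 (125, 112 and 68.8 CPM against 34.1, 32.8 and 14.8). Mt1, another metallothionein, was also higher in all 3 libraries.

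**Figure D3:**
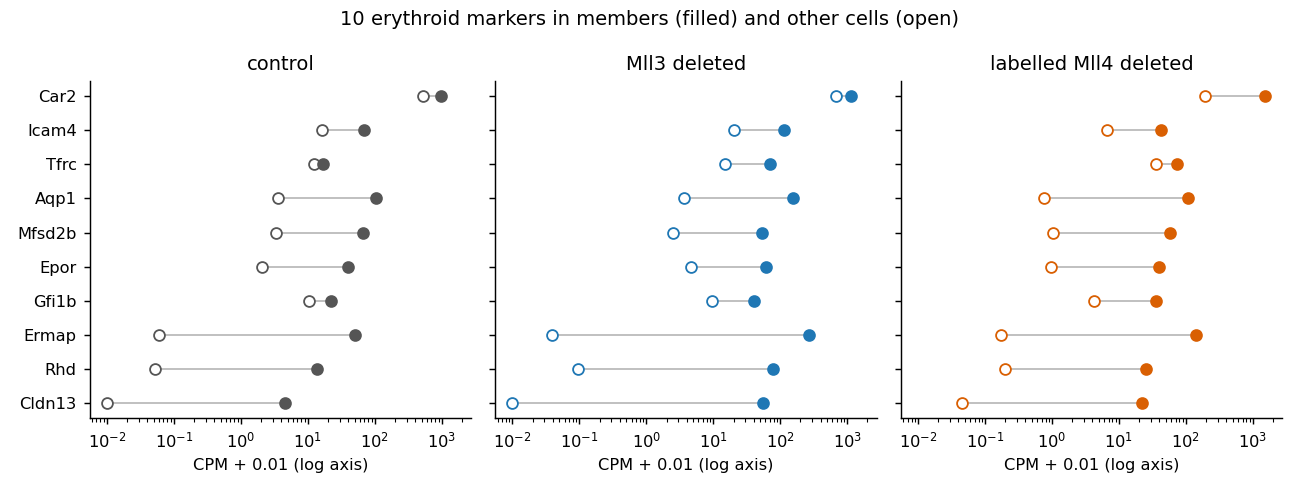
Levels of 10 erythroid markers that the rule did not use, as CPM plus 0.01 on a log axis, in members (filled) and other cells (open) of each library. Each filled point lies to the right of the open one; Ermap, Rhd and Cldn13 are below 0.2 CPM in the other cells.

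Granulocyte, monocyte and lymphoid priming genes were mostly lower in members. Of 11 granulocyte and monocyte genes measured, 8 were lower in all 3 libraries, and so were 5 of 7 lymphoid priming genes. Camp, S100a9, S100a8, Cd74, Elane, Emb, H2-Aa, Lyz2 and Myl10 ranked lowest by the median over libraries; Jchain did too, but was higher in control members through the 1 cell described below. S100a9, a neutrophil calprotectin subunit, stood at 7.91, 0 and 43.4 CPM against 314, 107 and 2491 CPM. Camp, an antimicrobial peptide, stood at 1.13, 0 and 8.47 CPM against 152, 65.0 and 584 CPM. H2-Aa, a class II antigen presentation gene, stood at 6.78, 15.3 and 41.3 CPM against 81.3, 153 and 695 CPM. The granulocyte and monocyte list summed to 607, 124 and 5112 CPM in members and to 2058, 1988 and 17663 CPM in other cells. Without the 2 Mll4 labelled members rich in granule genes, described below, the last of the members' sums was 561 CPM. Some lists were not lower. In control members the plasma and T list summed to 13897 against 2385 CPM and the lymphoid priming list to 4665 against 1038 CPM, with the 1 cell described below included. The megakaryocyte list summed to 977 against 714 CPM in control and to 659 against 558 CPM in Mll4 labelled members. The macrophage list summed to 10.2, 8.52 and 25.4 CPM in members. The mast and basophil list, which holds the selecting cap's genes and Kit, summed to 1488, 1145 and 1453 CPM, close to the other cells' 1394, 1370 and 1653 CPM.

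A few members carried transcripts of other cell types. A control member with 30 Car1 UMIs had 32.9% of its UMIs from the macrophage, plasma and T, and mast cell lists (Kit, Srgn and Cpa3 not counted), among them nearly all of the control members' Jchain (99.6%), Mzb1 and Ly6d, genes of antibody-secreting and lymphoid cells. A control member without Car1 held 87.1% of the control members' Pf4. In the library labelled Mll4 deleted, 2 members had at least 50 UMIs of Elane, Prtn3 and Ctsg, and 1 of them held 82.1% of the members' Elane. These cells were kept. At its own threshold the doublet caller marked 1, 1 and 169 cells (0.0137, 0.0164 and 3.53%), and removing the highest scores instead took out 1, 0 and 0 members. Without the 2 granule-rich members Elane went from 948 to 48.2 CPM in Mll4 labelled members, and without the 1 control cell Pf4 went from 237 to 31.7 CPM in control members.

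The antibodies read the same cells at the surface and were no part of the rule. CD150 and CD48 together, without CD135 (the MPP2 gate), held 22 of 37 control members (59.5%, exact interval 42.1 to 75.2), 6 of 20 Mll3 deleted members (30%, 11.9 to 54.3) and 11 of 19 Mll4 labelled members (57.9%, 33.5 to 79.7). Among the other cells the gate held 4.35, 2.93 and 3.13%. In each library the members' lower limit lay above the other cells' upper limits of 4.85, 3.38 and 3.71%. Seen from the gate, members were 6.53, 3.26 and 7.64% of MPP2 cells and at most 0.855% of cells in the HSC, MPP1, MPP3 and MPP4 gates. MPP3 (CD48 without CD150 and CD135) held 10, 10 and 4 members, the HSC gate 4, 3 and 3, and MPP1 held 0. The intervals of the Mll3 deleted and control members' MPP2 shares overlap. With antibody logs not centred per cell the shares were 37.8, 10 and 52.6%.

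**Figure D4:**
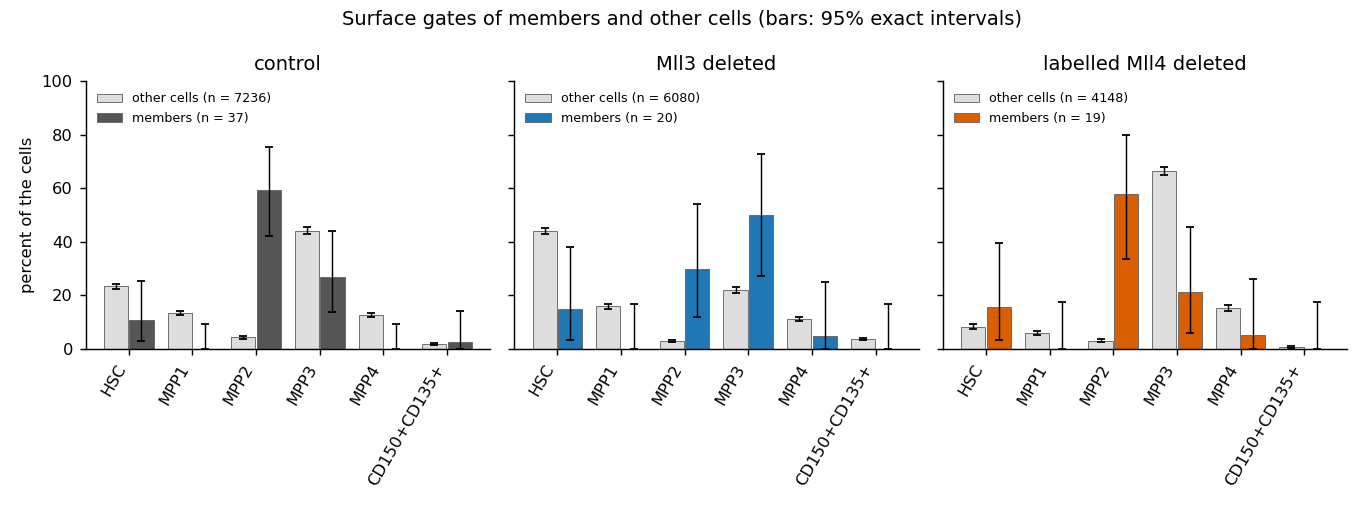
Percent of members (coloured bars) and of other cells (grey bars) in 6 surface gates set on the antibody counts, with exact 95% intervals that cover counting error only. MPP2 holds 59.5, 30 and 57.9% of members and 2.93 to 4.35% of the other cells.

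Antibody levels were compared as the centred log ratio (natural log) over the 6 antibodies in each cell, so a value is relative to the cell's other antibodies. CD34 was low: its median was -0.55, -0.46 and -0.64 in members against 0.77, 0.85 and -0.10 in other cells, and 2 of 37, 1 of 20 and 2 of 19 members lay above the other cells' median. Its transcript was lower too, with Cd34 at 87.0, 8.52 and 45.5 CPM in members against 334, 263 and 188 CPM. CD201, the stem cell protein encoded by Procr, had medians of -1.70, -1.93 and -1.51 against -1.23, -1.52 and -0.79, and 8, 5 and 2 members lay above the other cells' median. Procr had 5 UMIs in control members and 0 in the mutant ones. Low CD201 was not particular to members, as granule-gene cells had medians of -1.85, -2.17 and -1.25. Low CD34 was also found in the 208, 113 and 100 other cells with at least 5 UMIs of the megakaryocyte genes Pf4, Gp9 and Gp1bb, at medians of -0.17, -0.10 and -0.53, with 9.62, 13.3 and 28.0% above the other cells' median. In those cells CD150 had medians of 0.62, 1.22 and -0.87 and CD201 of -1.55, -1.85 and -0.68. The MPP2 gate held 27.9, 10.6 and 17% of them against 47.6, 73.5 and 16% in the HSC gate.

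CD150 was high in control and Mll4 labelled members, with medians of 0.11 and 0.71 against -1.35 and -1.34, and 35 of 37 and 17 of 19 members lay above the other cells' median. In the Mll3 deleted library it was not, at -0.49 against -0.28, with 9 of 20 above. The other cells of that library were themselves high in CD150: 44.1% of them fell in the HSC gate, against 23.5% of the control cells. CD150 was highest in the Mll4 labelled members without Car1 (1.08, 9 of 9 above) and lower in those with Car1 (-0.40, 8 of 10 above). CD48 had similar medians in the 3 groups of members, 2.85, 2.80 and 2.70, against 2.12, 0.77 and 3.19 in other cells. Its transcript Cd48 stood at 68.9, 42.6 and 51.9 CPM in members against 99.6, 55.7 and 105 CPM. The transcript did not follow the antibody in control and Mll3 deleted members, while in Mll4 labelled members both were lower. Slamf1, which encodes CD150, stood at 12.4, 5.11 and 20.1 CPM against 8.36, 14.1 and 5.62 CPM. CD117, the Kit receptor of the sort, had medians of 1.07, 1.31 and 0.93 against 0.97, 1.24 and 0.57. CD135, encoded by Flt3, had medians of -1.68, -1.42 and -1.77. Flt3 was detected in 4, 0 and 2 members. Ly6a, the Sca1 gene of the sort, was detected after thinning in 16.7, 30 and 15.8% of members and in 45.7, 52.1 and 37.3% of other cells.

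The last question of the design is how members of the deleted libraries compare with control members. The targeted genes were looked at first. Kmt2c stood at 82.5, 42.6 and 63.5 CPM in members and at 68.8, 35.3 and 58.2 CPM in other cells, so it was lower in the Mll3 deleted library in both. Kmt2d stood at 20.3, 18.7 and 34.9 CPM in members and at 24.6, 21.6 and 21.9 CPM in other cells. In the library labelled Mll4 deleted it was thus not lower than control in members and only slightly lower in other cells. These are 3' tags, and a tag outside the deleted part checks nothing.

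Against control members, 345 of 6361 measured genes were higher in Mll3 deleted members (5.42%) and 354 lower (5.57%). In Mll4 labelled members 358 of 6393 were higher (5.60%) and 217 lower (3.39%). Both comparisons share the control members. Of 58 measured erythroid list genes, 19 were higher and 1 was lower in Mll3 deleted members, with a median log2 ratio of 0.70 (interval over genes 0.31 to 0.87) against 0.11 over all genes. In the library's other cells the list's median was 0.17. With the rule's minimum at 3 UMIs (104 control and 62 Mll3 deleted members) it was 0.29. In Mll4 labelled members 13 of 58 were higher and 2 lower, with a median of 0.19 (0.04 to 0.66) against -0.03 over all genes and -0.28 in other cells. Measured genes needed 20 CPM in either group, and some, such as Tfrc and Rhd, reached this only in members of the deleted libraries. For those the filter itself favoured a higher value, so the erythroid counts and medians are a description. The classes of Car1 differed in number between the libraries, and members without Car1 were 11 of 37, 3 of 20 and 9 of 19.

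Of the haem and iron genes, 6 of 12 were higher and 0 lower in Mll3 deleted members, with a median log2 ratio of 0.96. Blvrb stood at 889 against 332 CPM, a log2 ratio of 1.42 (1.21 to 1.63), and was detected in 19 of 20 against 34 of 37 members. Cpox had a log2 ratio of 1.63 (1.18 to 2.11), and Urod, the enzyme before it in the pathway, of 1.31 (0.81 to 1.83), at 152 against 61.0 CPM. Steap3, an iron reductase, had 1.24 (0.58 to 1.95), at 83.5 against 35.0 CPM. In Mll4 labelled members 2 of 14 were higher, Alas1 and Hebp1, and Alad was lower. Alas1 stood at 331 CPM in that library's other cells too, against 25.9 CPM in control.

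Of the surface genes, Ermap had a log2 ratio to control of 2.40 (1.93 to 2.92) in Mll3 deleted and 1.46 (0.97 to 1.99) in Mll4 labelled members. Tfrc, the transferrin receptor, stood at 16.9, 69.9 and 73.0 CPM, with log2 ratios of 2.01 (1.16 to 3.0) and 2.07 (1.29 to 3.02), and 1 Mll4 labelled cell held 47.8% of its UMIs there. Rhd stood at 13.6, 78.4 and 25.4 CPM, and 1 Mll3 deleted cell held 56.5% of its UMIs. Epor had log2 ratios of 0.63 (-0.08 to 1.35) and -0.02 (-0.72 to 0.70), and Mfsd2b of -0.35 (-1.03 to 0.29) and -0.24 (-0.80 to 0.31), intervals that include 0. Among other early genes, Sphk1, the kinase that makes sphingosine 1-phosphate, stood at 7.91, 83.5 and 87.9 CPM in 3, 6 and 5 members. Per cell the erythroid list had medians of 104, 127 and 84.8 UMIs per 10000, with ranges of 44.5 to 148, 83.5 to 431 and 52.9 to 192 that overlap. Within the class of 20 or more Car1 UMIs they were 120, 141 and 128, though Car1 was not matched between libraries within it.

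Megakaryocyte genes were lower in Mll3 deleted members, 11 of 11 measured, with a median log2 ratio of -1.81 against -0.25 in the other cells. A gene was measured at 20 CPM in either group, and some, such as Itga2b, reached this in control only. For those the filter itself favoured a lower value, so the count is a description. The list's 16 genes summed to 977 CPM in control and 256 CPM in Mll3 deleted members. Without 1 control cell, Pf4 went from 237 to 31.7 CPM in control. Itga2b stood at 58.8, 11.9 and 58.2 CPM and was detected in 19, 5 and 14 members. Cd9, a tetraspanin of platelets, stood at 151, 64.7 and 75.2 CPM, and Mef2c, a transcription factor of megakaryocytes and lymphocytes, at 256, 114 and 241 CPM. Per cell the list had medians of 7.60, 2.05 and 6.63. It was as high as in control among Mll3 deleted members without Car1 (11.1 in 3 cells against 10.2 in 11) and lower at 1 to 19 Car1 UMIs (3.17 in 9 cells against 8.0 in 15) and at 20 or more (0.320 in 8 against 4.30 in 11). The last ranges, 0 to 1.24 and 0 to 7.60, overlap. Car1 was not matched within the classes: at 20 or more UMIs most Mll3 deleted members had more of it than most control members. At a minimum of 3 UMIs the median log2 ratio was -0.38. In Mll4 labelled members 4 of 11 genes were lower, with a median of -0.50 against -0.62 in other cells. That median was 0.22 at a minimum of 3 UMIs, 0.20 with the stricter cell filter and 0.21 without the mast cell cap.

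**Figure D5:**
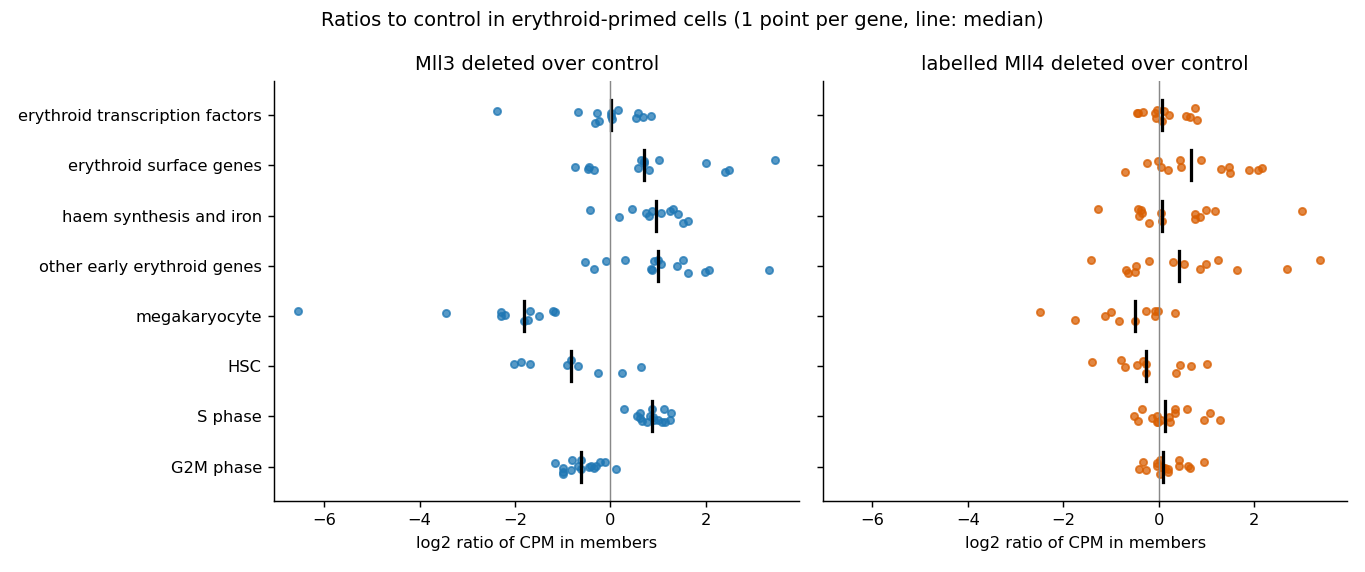
Log2 ratios of summed CPM in members, Mll3 deleted over control (left) and the library labelled Mll4 deleted over control (right), with 1 point per measured gene of each list and a bar at the list's median. On the left the megakaryocyte points lie below 0 with a median of -1.81 and the haem and iron median is 0.96; on the right these medians are -0.50 and 0.05.

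The list of S phase genes had 5 of 16 higher and 0 lower in Mll3 deleted members, with a median log2 ratio of 0.88 against 0.17 in other cells (0.46 at a minimum of 3 UMIs), while the G2M list had 0 higher and 1 lower, with a median of -0.62 against 0.32. In Mll4 labelled members these medians were 0.12 and 0.09. Ccne1, the cyclin of S phase entry, stood at 5.65, 61.3 and 27.5 CPM in 4, 7 and 8 members. Cited2, a co-regulator that keeps stem cells quiescent, stood at 101, 18.7 and 175 CPM. It was the only transcription factor of the list past the fold in Mll3 deleted members, with a log2 ratio of -2.37 (-3.48 to -1.52).

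Iigp1 and Igtp ranked highest among the genes higher in Mll3 deleted members. Iigp1, an immunity-related GTPase, had 1 UMI in control members and 242 in Mll3 deleted members, which is 1.13 against 412 CPM and a log2 ratio of 7.93 (6.02 to 13.82). It was detected in 1 of 37 and 13 of 20 members, and the highest cell held 26.4% of the UMIs. The related Igtp stood at 12.4, 281 and 10.6 CPM and Irgm2 at 5.65, 66.4 and 5.29 CPM. Gbp2, a guanylate-binding protein gene, stood at 18.1, 129 and 19.1 CPM, and Isg15, a ubiquitin-like protein gene, at 13.6, 90.3 and 10.6 CPM. In the other cells of the Mll3 deleted library the log2 ratios to control were 1.63 for Iigp1, 1.26 for Igtp, 1.28 for Irgm2, 0.43 for Gbp2 and 0.15 for Isg15, smaller than in the members. In control, members stood below the other cells in Iigp1 (39.2 CPM), and in the Mll3 deleted library above them (121 CPM). Iigp1 was found in 7 of 8 Mll3 deleted members with 20 or more Car1 UMIs, in 5 of 9 with 1 to 19 and in 1 of 3 without Car1, against 0 of 11, 1 of 15 and 0 of 11 in control.

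The heat shock gene Hspa1b had 2, 34 and 49 UMIs in members, with log2 ratios to control of 4.38 (2.72 to 7.78) and 4.21 (2.59 to 7.61). Hspa1a had 3, 39 and 16 UMIs, with a log2 ratio of 4.09 (2.64 to 6.63) in Mll3 deleted members. Both were also higher in the other cells, with log2 ratios for Hspa1a and Hspa1b of 3.70 and 3.26 in Mll3 deleted and 4.69 and 4.96 in the library labelled Mll4 deleted. Lgals9, a galectin gene, stood at 182, 743 and 348 CPM, and 1 Mll3 deleted cell held 36.5% of its UMIs.

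Lower in Mll3 deleted members were the surface gene Cd34 (87.0 against 8.52 CPM, in 18 of 37 against 3 of 20 members), Adgrl4, an adhesion receptor gene (105 against 15.3 CPM, with a log2 ratio that went from -2.71 to 0.06 at a minimum of 3 UMIs), Tmsb4x, thymosin beta 4 (1675 against 409 CPM), and S100a6, with 53 UMIs in control members and 0 in Mll3 deleted ones, at least 11.7-fold lower. The log2 ratio of Tmsb4x was -2.03 (-2.24 to -1.84) in members and -0.53 in other cells. Cpa3, a mast cell protease gene, stood at 72.3 and 8.52 CPM, and 1 control cell held 62.5% of its UMIs. Jchain, Ly6c2, Mzb1, Ly6d, Cd74 and Pf4 also ranked lowest, and from 87.1 to 100% of their UMIs in control members lay in 1 cell each. Cd52 had 67.3% of them in 1 cell.

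In Mll4 labelled members the highest genes were those of granulocytes: Elane (3 against 896 UMIs, log2 ratio 7.91, interval 6.58 to 10.41), Mpo (29.4 against 1729), Ctsg (21.5 against 785), Prtn3 (99.4 against 1048), S100a8, Clec12a and Slpi, with F13a1 at 0 against 109 UMIs, at least 34.0-fold higher. Without the 2 members rich in granule genes, Mpo stood at 100 CPM, Ctsg at 30.8, S100a8 at 50.9 and Clec12a at 2.68 CPM, F13a1 had 9 UMIs, and the log2 ratio of Prtn3 went from 3.39 to -0.04 and that of Slpi from 3.96 to -0.83. Ctsg, Clec12a and F13a1 were then no longer called. The same genes were higher in that library's other cells, with a log2 ratio of 4.05 for Elane and 4.49 for Mpo. Mpo was found in 19 of 19 members and in 93.0% of the other cells there, against 5 of 37 members and 29.0% in control. The part of RNA from other cells in these values was not tested. Hook2, a microtubule linker gene, was higher as well, with 72.2% of its UMIs in 1 cell.

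Lower in Mll4 labelled members were S100a10 (495 against 192 CPM), the tetraspanin gene Tspan32 (171 against 60.3), Jund, an AP-1 subunit gene (256 against 107), Tm2d2 (78.0 against 20.1) and the histone gene Hist1h2ac (88.1 against 16.9). These 5 were spread over many control members, from 26 to 37 of 37. The other cells had log2 ratios of the same sign, from -3.38 for Tspan32 to -0.76 for Tm2d2. Tpm3-rs7, a copy related to Tpm3 whose reads may be shared with it, stood at 88.1 against 1.06 CPM and is reported as uncertain. Jchain, Mzb1, Ly6d, Ly6c2, Cd74 and Pf4 ranked low here too, through the same control members. Without the members rich in other cell types' genes the log2 ratio of Jchain went from -6.31 to 1.35, that of Ly6c2 from -1.65 to 5.44 and that of Cd74 from -1.61 to 1.43. That of Pf4 was -1.76, and its sign turned under 5 alternatives.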

How the data were processed

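Gene and antibody counts per barcode were deposited for 4 libraries (10x Genomics 3' version 3.1). Per the submitters' processing notes they come from Cell Ranger 6.1.1 and mm10, and no count had been normalized. The members and gene lists were chosen with earlier results of these data known. Barcodes needed 1000 genes and at most 10% mitochondrial UMIs. UMIs were summed over members or over other cells (without those at 0.2% or more mast cell protease UMIs) and scaled to CPM. Log2 ratios add 0.5 UMIs, and their exact conditional 95% intervals, like the exact (Clopper-Pearson) binomial ones, cover counting error only. With 1 library per genotype no p-value is given. Named genes were the 15 highest and 10 lowest in members against other cells, and the 12 highest and lowest against control, by the interval bound nearest 0 at 50 CPM or more, plus the listed genes. Mitochondrial, ribosomal protein, haemoglobin, immunoglobulin and unnamed genes were left out of that ranking. Antibody gates used Gaussian mixture crossings (CD150 -0.34, CD48 1.70, CD135 -0.97). On simulated data 100% of 4-fold changes and 40.4 to 61.4% of 2-fold changes were called, and 1.35 to 1.98% of unchanged genes. The simulation drew Poisson sums per gene without variation between cells, and set changes only on genes at 50 CPM or more. Its rates therefore cannot be set against the shares of genes called in the data. Tools were Python 3.11.15, scipy 1.17.1, scikit-learn 1.9.0, scanpy 1.11.5 (doublet scores) and edgeR 4.0.16 (TMM factors only). Some genes of the lists are not reported by name here.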

Additional observations from a re-analysis of the deposited data

How the results depend on the processing

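Alternatives were the rule's minimum, its genes, the cell filter, the mast cell cap, doublet scores, the CPM minimum, scaling, cell weighting and left-out members. The share of members moved with the minimum, to 1.43, 1.02 and 0.939% at 3 UMIs (control, Mll3 deleted, Mll4 labelled), to 0.316 and 0.209% in control and Mll4 labelled at 8 UMIs, and to 0.165, 0.148 and 0.146% at 20 UMIs, a setting chosen after seeing the data. At 2000 genes and 5% mitochondrial UMIs it was 0.779% in control. The MPP2 share of members was 40.4% in control at 3 UMIs, 37.8% in control and 10% in Mll3 deleted with antibody logs not centred, and 28.6% in Mll4 labelled at 20 UMIs. Genes higher in members in 3 of 3 libraries numbered 35 at 3 UMIs, 104 at 8, 133 at 20, 112 at a 5 CPM minimum and 14 at 100 CPM, against 62. Against control, Mll3 deleted members had 102 higher and 80 lower genes at 3 UMIs, and 76 and 63 at 100 CPM; Mll4 labelled members had 111 lower at 3 UMIs, and 96 higher and 27 lower at 100 CPM. The Mll3 deleted erythroid median was 0.29 at 3 UMIs. A higher CPM minimum measures fewer genes; the cause of the other shifts was not tested.

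Directions also turned for some list medians and single genes. Members over other cells, the megakaryocyte median became -0.46 (8 UMIs), -0.32 (2 of the 3 genes), -0.15 (stricter filter) and -1.47 (20 UMIs) in control, 0.52 (3 UMIs) in Mll3 deleted, and -1.20 (8) and -1.89 (20) in Mll4 labelled. The HSC median was 0.00 in Mll4 labelled without the cap, the S phase median 0.06 (3) and 0.07 (no cap) there, and the G2M median -0.13 (8) and -0.19 (stricter filter) in Mll3 deleted. Over control, Mll3 deleted members had 0.05 for HSC genes (3), 0.33 for G2M genes (20), 0.06 for Adgrl4 (3), and 0.56 for Mzb1 and Ly6d without members rich in other cell types' genes (Kit, Srgn and Cpa3 not counted). Mll4 labelled members then had 1.35 for Jchain, 5.44 for Ly6c2 and 1.43 for Cd74, which was 1.93 at 3 UMIs. Without granule-rich members they had -0.04 for Prtn3 and -0.83 for Slpi. Pf4 was 0.92 (3), 1.03 (2 of 3 genes), 1.37 (stricter filter), 1.62 (no cap) and 1.13 (20), the megakaryocyte median 0.22 (3), 0.20 (stricter filter) and 0.21 (no cap), the S phase median -0.08 (3) and -0.08 (20), and the G2M median -0.03 (3) and -0.05 (no cap). Single gene values were counted once per gene, comparison and alternative. Of these, 1305 stayed called or uncalled as in the main setting, 71 lost their call and 5 gained one. A further 14 called values changed sign. No paired analysis was possible because each genotype has 1 library and no replicate numbers. The number of members, 19 to 37, limits the precision of the shares.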
